A study of Homo sapiens with 6 samples.

Results

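The Band 4.1 and ERM genes encode proteins that tie the plasma membrane to the cytoskeleton beneath it, and 10 of them were followed in PC-3 cells with and without depletion of CdGAP. They were taken by symbol out of the 64253 genes of the count tables: the Band 4.1 genes EPB41, EPB41L1, EPB41L2, EPB41L3, EPB41L4A and EPB41L5, the ERM genes EZR, RDX and MSN, and NF2. The family was selected on measured values: EPB41L3 was already known to be among the largest decreases of this same contrast when it was chosen, so the differences of these 10 genes between the groups are given as a description, no p-value of theirs is printed, and nothing is read from which of them passed the test. PC-3 is a human prostate cancer line that grows without androgen, and CdGAP, the product of ARHGAP31, is a GTPase-activating protein for Rac1 and Cdc42, the small GTPases that drive actin protrusion. All 6 libraries came from PC-3 cells that had received a short hairpin RNA. In 3 libraries, labelled shCDGAP and written shCdGAP here, the hairpin targeted CdGAP, and in the other 3, labelled shCONTROL and written shCon here, it was a control hairpin.

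The shCdGAP lines were grown from single cells after puromycin selection, which the study's methods do not state for the control cells, and the methods do not name the clone that was sequenced. The depletion and the history of a clone therefore cannot be told apart. Each group was sequenced from 3 independent samples. If the samples of a group came from 1 clone, the p-values measure only the spread between those samples. In bulk RNA, fewer cells that express a gene and less of its RNA in each cell cannot be told apart.

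Proteins of this superfamily share the FERM domain, a clover-shaped module that binds phosphoinositides and the cytoplasmic tails of membrane proteins. The classical Band 4.1 proteins also hold a segment that fastens spectrin to actin, the arrangement first described in the red cell skeleton. Ezrin, radixin and moesin are folded shut until phosphoinositide binding and phosphorylation near the carboxyl end open them, after which they bind actin filaments under microvilli and the cortex. Merlin, the product of NF2, has the same fold, and it feeds into the Hippo pathway, which restrains growth.

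Library totals ran from 34011175 to 43154039 assigned reads in shCdGAP and from 33182796 to 42786971 in shCon. ARHGAP31 itself averaged 26.8 ± 0.351 CPM (counts scaled to the library total, with TMM factors) in shCdGAP and 59.2 ± 1.22 in shCon (SD, n = 3 in each group), a log2 fold change of -1.14 (edgeR adjusted p = 8.75e-08). The loss of ARHGAP31 RNA was thus partial. It was smaller than the reduction of CdGAP mRNA, measured by PCR, that the paper reports for its shCdGAP clone. The reason for the gap was not tested. The epithelial keratin genes KRT8 and KRT18 lay at 184 to 203 CPM and 250 to 299 CPM over the 6 libraries. The adhesion gene EPCAM lay at 203 to 223 CPM in shCdGAP and 81.7 to 84.4 CPM in shCon, and CDH1, the E-cadherin gene, at 25.4 to 50.5 and 56.6 to 59.8 CPM. The sum of these 4 epithelial markers was 676 to 775 CPM in shCdGAP and 576 to 587 CPM in shCon. The secreted kallikrein genes KLK3 and KLK2 were at 0 in all 6 libraries. shCdGAP replicate 2 stood apart: its count profile differed from the other 2 shCdGAP libraries by a chi-square of 31.5 and 38.6 per degree of freedom, against 2.80 to 7.78 for the other within-group pairs, and 72 of 16439 tested genes lay over 2-fold from both of its group mates, against 0 in each other library. The fold changes of the 10 genes and the list counts that moved most without this library are given with and without it.

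The steepest difference of the family was in EPB41L3, which encodes protein 4.1B, also called DAL-1, a spectrin and actin linker that has been described as a tumour suppressor in lung and other carcinomas. The gene lies on the minus strand of chr18:5392381-5630700 (GRCh38, ENSG00000082397), and RefSeq gives it 4 transcription starts spread over 107612 bases. The 250 bases before the most upstream start, at chr18:5628992-5629241 on the minus strand of GRCh38.p14, are shown because EPB41L3 carried the largest difference, and those of EZR, at chr6:158818236-158818485 on the minus strand, are shown beside them as a family member whose level differed little. Both are written 5′ to 3′ with each CG dinucleotide in capitals.
EPB41L3: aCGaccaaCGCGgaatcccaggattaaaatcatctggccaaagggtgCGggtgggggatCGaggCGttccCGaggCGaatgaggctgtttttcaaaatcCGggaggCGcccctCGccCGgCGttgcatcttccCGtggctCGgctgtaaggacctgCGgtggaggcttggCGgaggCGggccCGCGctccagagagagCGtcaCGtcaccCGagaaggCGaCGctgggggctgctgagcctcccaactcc
EZR: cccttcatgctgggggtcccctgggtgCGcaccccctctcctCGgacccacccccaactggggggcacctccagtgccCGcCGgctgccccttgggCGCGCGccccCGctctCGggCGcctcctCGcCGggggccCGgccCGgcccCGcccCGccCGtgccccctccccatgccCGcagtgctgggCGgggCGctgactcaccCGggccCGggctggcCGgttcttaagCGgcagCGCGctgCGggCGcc
The EPB41L3 stretch held 25 CG dinucleotides, more than 78.4% of 35116 RefSeq upstream stretches of the same length, and the EZR stretch held 28, more than 84.1%. The median of all stretches was 11. Of the downstream EPB41L3 starts, the nearest had 23 CG dinucleotides and the others had 4 and 2, so the gene has both CG-rich and CG-poor starts. Gene counts do not tell these starts apart, and CG content is a letter count that gives no information on methylation.

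EPB41L3 had 13, 125 and 10 reads in shCdGAP replicates 1, 2 and 3, against 1679, 1709 and 1351 reads in the shCon libraries. In CPM these were 0.321, 2.87 and 0.291 in shCdGAP and 40.0, 40.5 and 40.9 in shCon. The groups lay far apart, all 3 shCon libraries sat together, and within shCdGAP replicate 2 was the high one. The shCdGAP mean of 1.16 ± 1.48 CPM was 2.87% of the shCon mean of 40.5 ± 0.435 CPM (SD, n = 3 in each group), or 34.9-fold lower, with a fitted log2 fold change of -5.03 (SE 0.615). Without shCdGAP replicate 2 the fitted value was -7.04 (SE 0.112), resting on the 13 and 10 reads of the other shCdGAP libraries. This SE is derived from the F statistic and does not measure the counting error of so few reads.

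The EPB41L3 level in shCdGAP replicate 2 was 7.09% of the shCon mean, against 0.792% in replicate 1 and 0.719% in replicate 3, so it was 9.39-fold above the mean of the other 2. Its coefficient of variation over libraries was 128% in shCdGAP and 1.08% in shCon. By another measure, the SD of log2 CPM taken with a small offset, 11 of the 16439 tested genes had a larger spread over the shCdGAP libraries. EPB41L3 was already known to be unequal among these libraries, so this count is a description. Low levels were not always raised in this library by as much: 8 genes averaged at least 10 CPM in shCon and lay under 5% of that in shCdGAP replicates 1 and 3, and their ratio of replicate 2 to the other 2 had a median of 3.07 and ran from 0.510 in MUC5AC to 9.71 in LCP1. Besides EPB41L3 these genes were IGF2, LCN2, LCP1, MUC5AC, MUC5B, SPINK5 and TINAGL1. Replicate 2 was above both group mates in 7 of the 8 and over 2-fold above their mean in 5. The part of cell mixture, clone or handling in this excess was not tested.

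**Figure D1:**
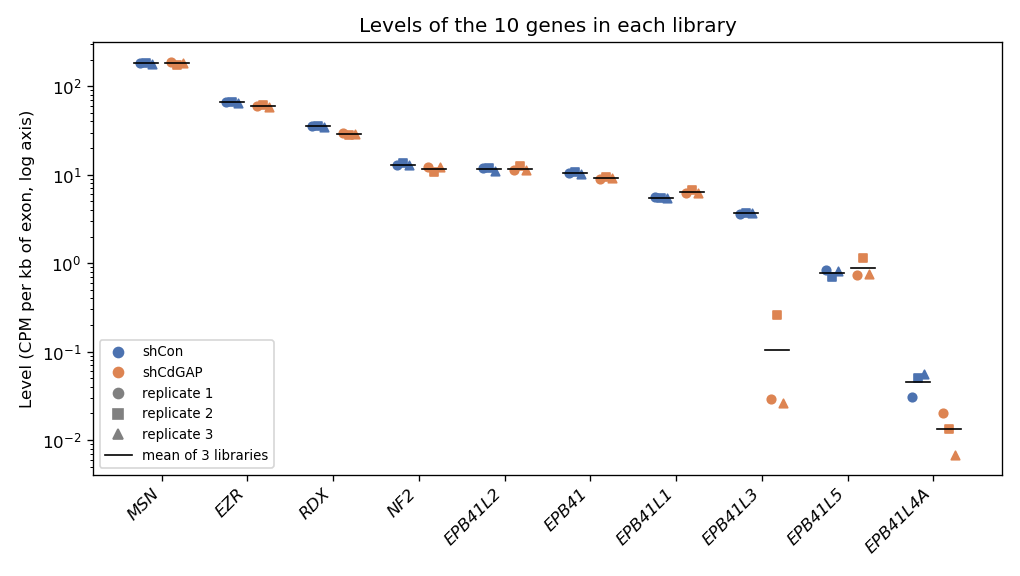
CPM per kilobase of exon (log axis) of the 10 genes, shCon beside shCdGAP, with 1 point per library, its shape giving the replicate, and a line at each mean. EPB41L3 goes from a mean of 3.68 in shCon to 0.105 in shCdGAP, where replicate 2 is the highest point, while MSN, the most abundant, lies at 182 in both groups.

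The low EPB41L3 level was not shared by the genes around it. Of the 10 nearest tested genes on chromosome 18, 5 on each side, 2 had a negative log2 fold change, the median was 0.70, and the range was -0.33 to 1.23. The closest on the low-coordinate side was ZBTB14, a zinc finger repressor, at 14.2 CPM in shCdGAP and 15.8 CPM in shCon (log2 fold change -0.15, SE 0.0623, edgeR adjusted p = 0.0666). On the other side TMEM200C, a transmembrane protein gene, rose from 73.2 to 153.0 CPM (log2 fold change 1.06, SE 0.132, edgeR adjusted p = 0.000487). Further along, ARHGAP28, which encodes another GTPase-activating protein, rose with a log2 fold change of 1.03 (edgeR adjusted p = 0.0002), and PTPRM, a receptor tyrosine phosphatase found at cell contacts, rose with a log2 fold change of 1.10 (edgeR adjusted p = 2.85e-06).

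**Figure D2:**
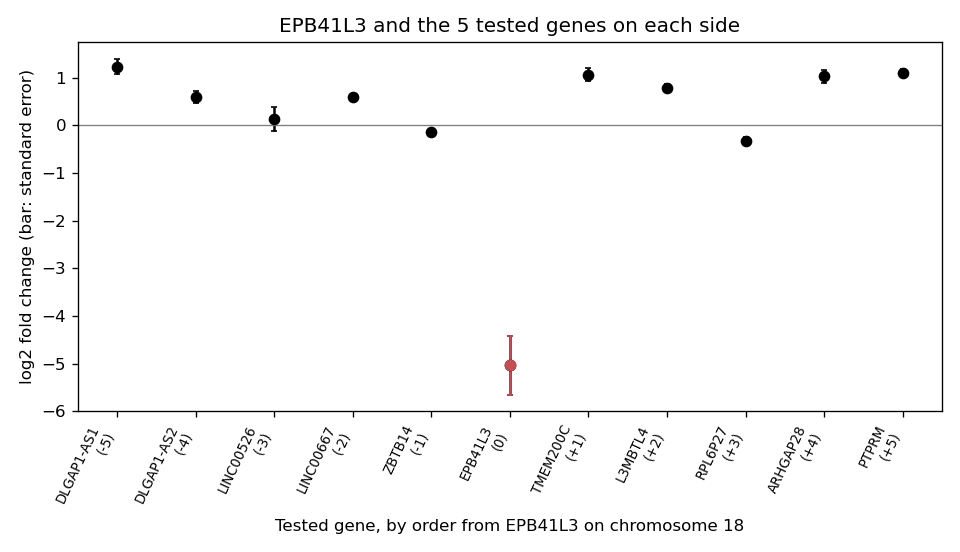
Log2 fold change (shCdGAP minus shCon) of EPB41L3 and of the 5 nearest tested genes on each side, in the order of their position on chromosome 18, with bars for the standard error. EPB41L3 lies at -5.03, and its 10 neighbours lie between -0.33 and 1.23.

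The other Band 4.1 genes differed by far less. EPB41, whose product protein 4.1R stabilizes the red cell skeleton, was at 75.0, 78.0 and 76.7 CPM in shCdGAP and 87.4, 90.0 and 85.4 CPM in shCon. Every shCdGAP library was below every shCon library, and the log2 fold change was -0.19 (SE 0.0378). EPB41L1, which encodes the 4.1N form known from neurons, went the other way, with 49.0, 53.3 and 48.8 CPM in shCdGAP and 43.5, 43.0 and 43.4 CPM in shCon. Its groups did not overlap either, and the log2 fold change was 0.22 (SE 0.0465), or 0.17 without shCdGAP replicate 2, the highest library.

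EPB41L2, which encodes the widely expressed 4.1G form, had 117.2, 127.0 and 115.5 CPM in shCdGAP and 121.1, 122.7 and 114.2 CPM in shCon. The groups overlapped, and the 95% interval of the log2 fold change ran from -0.087 to 0.101. EPB41L5, whose product binds Crumbs and is known for drawing E-cadherin off the surface during epithelial-mesenchymal transition, had 6.83, 10.5 and 6.92 CPM in shCdGAP and 7.84, 6.44 and 7.54 CPM in shCon. Here shCdGAP replicate 2 was the highest of all 6 libraries, the groups overlapped, and the log2 fold change was 0.16 (95% interval -0.183 to 0.50) with that library and -0.087 without it. EPB41L4A, a little-studied member with no spectrin-actin segment, was barely detected, with 7, 5 and 2 reads in shCdGAP and 11, 18 and 16 reads in shCon. Its log2 fold change of -1.68 (SE 0.428) rests on these few reads, and it passed the low-count filter through the shCon libraries only.

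As shares of the summed level per kilobase of exon of the 6 Band 4.1 genes, EPB41L3 held 11.4% ± 0.314 in shCon and 0.357% ± 0.444 in shCdGAP (SD, n = 3 in each group), with 0.106%, 0.870% and 0.0961% in shCdGAP replicates 1, 2 and 3. The share of EPB41L2 was 36.1% ± 0.700 in shCon and 41.3% ± 0.314 in shCdGAP, and that of EPB41L1 was 17.1% ± 0.383 and 22.6% ± 0.0529. The share of EPB41 was 32.8% ± 0.333 and 32.6% ± 1.15, and these groups overlapped. The summed Band 4.1 level was 28.3 ± 1.43 CPM per kilobase in shCdGAP and 32.2 ± 0.609 in shCon, or 87.9% of the shCon value. The shares were computed with the EPB41L3 difference already known, and a fall in 1 share raises the others by construction.

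The ERM genes were the most abundant of the family. MSN, which encodes moesin, had 1121.7, 1046.8 and 1097.4 CPM in shCdGAP and 1090.4, 1090.8 and 1075.1 CPM in shCon. The groups overlapped, and the 95% interval of its log2 fold change ran from -0.067 to 0.076. EZR, which encodes ezrin, the form that builds microvilli in epithelia, had 200.8, 207.0 and 193.3 CPM in shCdGAP and 221.9, 222.8 and 217.8 CPM in shCon. The groups did not overlap, and at 90.7% of the shCon mean the log2 fold change was -0.14 (SE 0.0361).

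RDX, which encodes radixin, had 192.8, 183.8 and 189.5 CPM in shCdGAP and 233.6, 233.5 and 230.4 CPM in shCon. The shCdGAP libraries were all lower, at 81.2% of the shCon mean, with a log2 fold change of -0.30 (SE 0.033). Among the ERM genes RDX had the largest difference. NF2 had 87.0, 76.4 and 87.2 CPM in shCdGAP and 91.3, 96.3 and 92.4 CPM in shCon. The groups did not overlap, shCdGAP replicate 2 was the lowest library, and the log2 fold change was -0.16 (SE 0.0557), or -0.11 without that library.

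Per kilobase of exon the ERM genes summed to 271 ± 6.04 CPM in shCdGAP and 283 ± 2.58 CPM in shCon. MSN made up 67.3% ± 1.02 of this sum in shCdGAP and 64.2% ± 0.0596 in shCon, and RDX made up 10.6% ± 0.0605 and 12.5% ± 0.0183, with no overlap of the groups in either (SD, n = 3 in each group). The share of EZR was 22.1% ± 1.07 in shCdGAP and 23.3% ± 0.0778 in shCon, and these groups overlapped because shCdGAP replicate 2, at 23.4%, lay inside the shCon range.

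**Figure D3:**
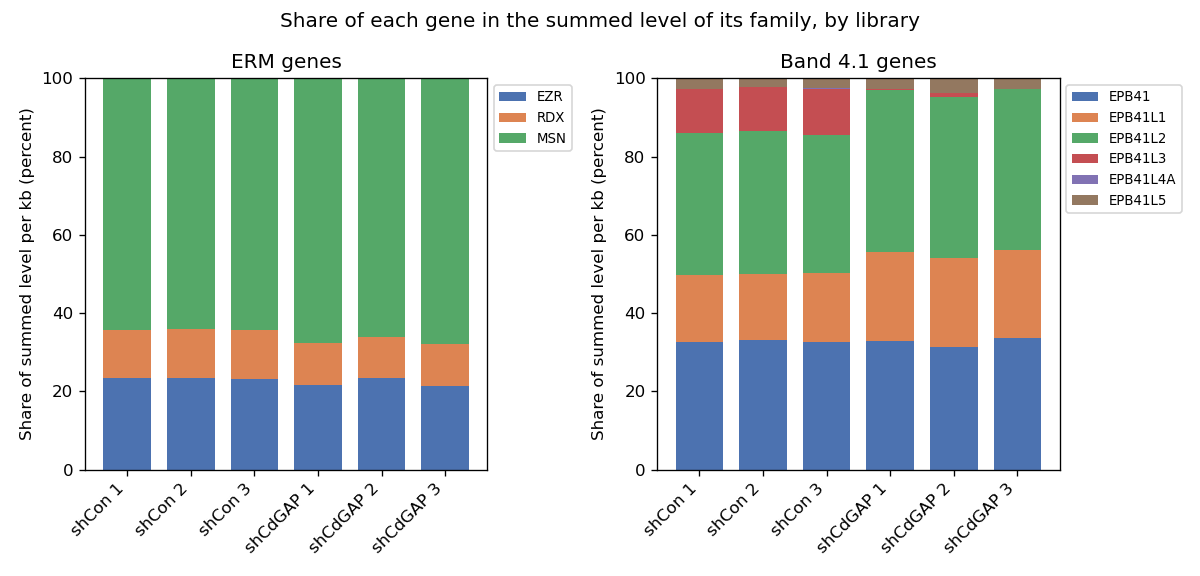
Share (percent, axis from 0) of each gene in the summed CPM per kilobase of exon of the 3 ERM genes (left) and the 6 Band 4.1 genes (right), as a stacked bar for each library. On average EPB41L3 goes from 11.4% of the Band 4.1 sum in shCon to 0.357% in shCdGAP, and MSN makes up 64.2% and 67.3% of the ERM sum in shCon and shCdGAP.

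Across the family the shCon levels per kilobase of exon fell from MSN at 182 CPM through EZR at 66.1, RDX at 35.3, NF2 at 13.02, EPB41L2 at 11.6, EPB41 at 10.6, EPB41L1 at 5.51, EPB41L3 at 3.68 and EPB41L5 at 0.784 to EPB41L4A at 0.0456. No neighbours in this order had overlapping shCon ranges. In shCdGAP, EPB41L3 at 0.105 CPM per kilobase moved below EPB41L5 at 0.871, and EPB41L2 and NF2, both at 11.7, had ranges that overlapped. The order of the other genes was as in shCon.

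By edgeR's quasi-likelihood test with Benjamini-Hochberg adjustment over all tested genes, 6 of the 10 genes passed an adjusted p under 0.01, against 46.2% of all 16439 tested genes. The 5 that were lower in shCdGAP were EPB41, EPB41L3, EPB41L4A, EZR and RDX, against 22.0% of all tested genes lower. Of these, EPB41L4A passed the low-count filter through the shCon libraries alone, so it could only come out lower. EPB41L1 was the 1 that was higher, against 24.1% of all tested genes higher. EPB41L3 and EPB41L4A also had an absolute log2 fold change above 1, against 12.8% of all tested genes. The groups did not overlap in 7 of the 10, against 67.1% of all tested genes. The median log2 fold change of the 10 was -0.15, against 0.01 over all tested genes, and the median absolute value was 0.178 against 0.309. Since the choice of the family used this contrast, nothing is read from these counts.

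Several of these calls lay near the threshold and were lost with fewer libraries, while the log2 fold changes of those genes moved little except in EPB41L4A. The log2 fold change of EPB41L3 moved most, from -7.04 to -4.58. EPB41L3 passed without any 1 library, but it was known as a large decrease in these same libraries, so nothing is read from that. EPB41L1 no longer passed without shCdGAP replicate 1 or without any 1 of the 3 shCon libraries (log2 fold change 0.20 to 0.23), and EZR no longer passed without any 1 library other than shCdGAP replicate 2 (-0.16 to -0.12). EPB41L4A no longer passed without shCdGAP replicate 1 or 3 or shCon replicate 2 or 3 (-2.08 to -1.42), and EPB41 no longer passed without shCon replicate 2 (-0.19). Without shCdGAP replicate 2, NF2 passed as well, making 7 of the 10, and 60.0% of all genes tested then passed.

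**Figure D4:**
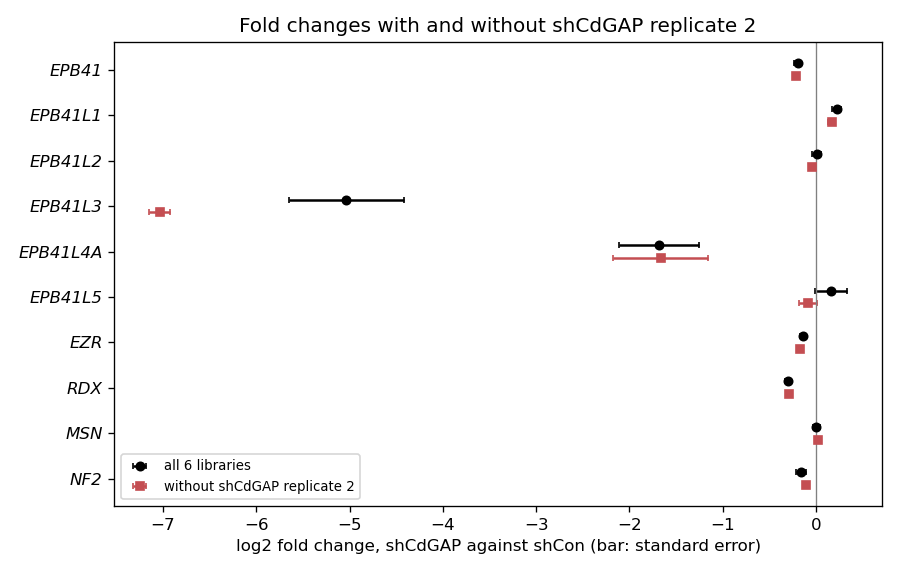
Log2 fold change (shCdGAP minus shCon) of the 10 genes by edgeR with bars for the standard error, and the value without shCdGAP replicate 2. EPB41L3 lies at -5.03 with all libraries and at -7.04 without replicate 2, EPB41L4A at -1.68, and the other 8 lie between -0.30 and 0.22.

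shCdGAP replicate 2 was the highest or lowest library of its group in 9 of the 10 genes, highest in 6 and lowest in 3, while replicate 1 was at an end of the group in 5 and replicate 3 in 6. This count was not made over all tested genes, so it is not read as a trait of the 10. Over the 6 libraries the 5 genes whose log2 CPM followed that of EPB41L3 most closely by Pearson's r were FLI1 (r = 0.9999), RPL30 (0.9998), TNS4 (0.9995), IGF2 (0.9994) and F2RL1 (0.9992). These libraries fall into 2 groups and share their depth and preparation, so the values describe a shared order, with shCon highest and shCdGAP replicate 2 above its group mates, and not a shared size of difference. RPL30, a ribosomal protein gene, had 416.7, 471.1 and 417.8 CPM in shCdGAP and 550.2 to 552.9 CPM in shCon, and F2RL1, which encodes a protease-activated receptor, had 174.2, 225.6 and 173.7 CPM in shCdGAP and 329.5 to 335.0 CPM in shCon. The other 3 were far lower in shCdGAP. FLI1, which encodes an ETS transcription factor, had 0, 0.321 and 0 CPM in shCdGAP and 4.50 to 4.78 CPM in shCon. TNS4, which encodes a tensin of focal adhesions, had 5.20, 15.1 and 4.77 CPM in shCdGAP and 49.8 to 52.8 CPM in shCon. IGF2, an insulin-like growth factor, had 6.22, 42.7 and 7.13 CPM in shCdGAP and 417.1 to 434.9 CPM in shCon.

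The shares that passed and the medians of the partner lists stand against 46.2% and 0.01 over all tested genes. The partner lists were also chosen with earlier results of these data known. In each list the genes named are those highest and lowest in log2 fold change among those that passed. Their p-values are therefore a description and give no independent support. Of 24 tested genes among 26 other FERM domain genes, 5 rose, 7 fell and 12 did not pass (50.0% passed, median log2 fold change -0.06). FRMD6, whose product willin acts upstream of Hippo signalling, rose from 39.8 ± 0.383 to 106.9 ± 1.69 CPM (log2 fold change 1.43, SE 0.036, edgeR adjusted p = 1.87e-08, n = 3 in each group). TLN2, which encodes a talin that links integrins to actin, rose with a log2 fold change of 1.01 (edgeR adjusted p = 2.06e-06). Of 10 neighbours each, 3 of FRMD6 and 5 of TLN2 had negative values, with medians of 0.30 and 0.14. FARP1, an exchange factor gene for Rac1, fell from 79.8 ± 1.90 to 19.5 ± 0.852 CPM (log2 fold change -2.04, SE 0.0476, edgeR adjusted p = 1.32e-08). All 10 neighbours of FARP1 on chromosome 13 also had negative values, with a median log2 fold change of -1.56. EPB41L4B, a close relative of EPB41L5, fell with a log2 fold change of -1.04 (edgeR adjusted p = 2.78e-06), and 7 of its 10 neighbours on chromosome 9 had negative values with a median of -0.24. Without shCdGAP replicate 2, 11 genes of this list were lower, in a fit where the share of all tested genes that were lower also went from 22.0% to 30.0%.

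Of the genes of the spectrin skeleton, to which Band 4.1 proteins fasten actin, 16 of 18 were tested, 7 rose, 2 fell and 7 did not pass (56.2% passed), with a median log2 fold change of 0.26. ADD2, which encodes beta-adducin, a capping protein of the spectrin-actin junction, had 373, 802 and 329 reads in shCdGAP and 2, 5 and 1 reads in shCon. It passed the low-count filter through the shCdGAP libraries alone, so it could only come out higher and no p-value is given. ADD2 is still counted among the 7 that rose and in the share that passed. SPTBN5, a large beta-spectrin gene, rose from 0.711 ± 0.166 to 4.70 ± 0.306 CPM (log2 fold change 2.71, SE 0.170, edgeR adjusted p = 2.07e-06, n = 3 in each group). ADD1, which encodes alpha-adducin, fell with a log2 fold change of -0.25 (edgeR adjusted p = 0.000188), and TMOD3, which encodes the tropomodulin of non-erythroid cells, fell with one of -0.29 (edgeR adjusted p = 0.000529). Of 10 neighbours each, 7 of ADD1 and 2 of TMOD3 had negative values, with medians of -0.26 and 0.16. For ADD2 and SPTBN5, which rose, 4 and 5 neighbours had negative values, with medians of 0.21 and 0.02. Without shCdGAP replicate 2, 8 genes of this list were higher, in a fit where the share of all tested genes that were higher also went from 24.1% to 30.0%. The defining erythroid markers HBB, HBA1 and ALAS2 were at 0 in all 6 libraries, and SLC4A1 had at most 8 reads.

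Of the membrane proteins and adaptors that Band 4.1 and ERM proteins bind, 17 of 24 were tested, 9 rose, 3 fell and 5 did not pass (70.6% passed), with a median log2 fold change of 0.59. GYPC, which encodes glycophorin C, the membrane anchor of protein 4.1R in red cells, had 101, 136 and 108 reads in shCdGAP and 1, 0 and 0 reads in shCon. The depth-scaled ratio was 341, with a 95% exact counting interval from 60.9 to 13519 that covers counting error only and rests on a single shCon read. GYPC also passed the low-count filter through the shCdGAP libraries alone, so it could only come out higher. It is still counted among the 9 that rose and in the share that passed. SELPLG, a selectin ligand gene known from leukocytes, rose with a log2 fold change of 2.10 (edgeR adjusted p = 1.58e-05), while the leukocyte marker CD3E was at 0, PTPRC had at most 1 read, and the leukocyte sum was 0.197 to 0.276 CPM in shCdGAP and 0.121 to 0.238 CPM in shCon. NHERF2, which encodes a scaffold that ties ERM proteins to ion transporters, fell from 193.3 ± 7.35 to 74.6 ± 4.40 CPM (log2 fold change -1.37, SE 0.0508, edgeR adjusted p = 1.05e-07, n = 3 in each group). CADM4, a nectin-like adhesion gene, fell with a log2 fold change of -0.98 (edgeR adjusted p = 0.00352). Of 10 neighbours each, 8 of NHERF2 and 5 of CADM4 had negative values, with medians of -0.20 and 0.11. For SELPLG and GYPC, which rose, 3 and 4 neighbours had negative values, with medians of 0.22 and 0.09. CADM1, the adhesion partner for which protein 4.1B is known, had 1 to 7 reads a library and was not tested. Without shCdGAP replicate 2, 13 genes of this list were higher, against 30.0% of all tested genes higher in that fit and 24.1% with all libraries.

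Of the kinases, phosphatase subunits, lipid kinases and GTPase genes that open or close ERM proteins, 14 of 16 were tested, 3 rose, 4 fell and 7 did not pass (50.0% passed), with a median log2 fold change of 0.01. ROCK2, a kinase gene of the actomyosin cortex, fell from 165.8 ± 3.13 to 97.4 ± 0.861 CPM (log2 fold change -0.77, SE 0.0335, edgeR adjusted p = 2.45e-07, n = 3 in each group). SLK, a kinase that phosphorylates ERM proteins directly, fell with a log2 fold change of -0.48 (edgeR adjusted p = 8.66e-05). PRKCA, a protein kinase C gene, rose with a log2 fold change of 0.56 (edgeR adjusted p = 6.88e-06), and PIP5K1C, which encodes an enzyme that makes the phosphoinositide that opens the FERM domain, rose with one of 0.37 (edgeR adjusted p = 3.17e-05). Of 10 neighbours each, 3 of ROCK2, 0 of SLK, 5 of PRKCA and 5 of PIP5K1C had negative values. The medians were 0.40, 0.565, -0.02 and -0.05. Without shCdGAP replicate 2, 6 genes of this list were higher, in a fit where 30.0% of all tested genes were higher.

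Of the partners of merlin in Hippo signalling, 17 of 18 were tested, 5 rose, 7 fell and 5 did not pass (70.6% passed), with a median log2 fold change of 0.12. AMOTL2, which encodes an angiomotin that merlin binds at junctions, fell from 33.5 ± 1.39 to 9.61 ± 0.476 CPM (log2 fold change -1.80, SE 0.0613, edgeR adjusted p = 6.4e-08, n = 3 in each group). LATS2, a core Hippo kinase gene on chromosome 13, fell with a log2 fold change of -0.88 (edgeR adjusted p = 7.82e-05), and 9 of its 10 neighbours had negative values with a median of -0.57. PAK1, a kinase gene whose product phosphorylates merlin downstream of Rac1, rose with a log2 fold change of 0.98 (edgeR adjusted p = 7.56e-06). MAP4K4 rose from 399.2 ± 8.42 to 677.6 ± 99.3 CPM (log2 fold change 0.76, edgeR adjusted p = 0.000255, n = 3 in each group). Of 10 neighbours each, 5 of AMOTL2, 4 of PAK1 and 4 of MAP4K4 had negative values, with medians of 0.01, 0.13 and 0.46. The number of genes that rose in this list was 9 without shCdGAP replicate 2, where 30.0% of all tested genes were higher, and 3 without shCon replicate 1, where 17.5% were.

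Of the partners of EPB41L5 in the Crumbs polarity complex and at adhesions, 7 of 10 were tested, 3 rose, 1 fell and 3 did not pass (57.1% passed), with a median log2 fold change of 0.44. LIN7A, which encodes a scaffold of that complex, rose from 31.5 ± 0.814 to 63.3 ± 5.05 CPM (log2 fold change 1.01, SE 0.0619, edgeR adjusted p = 1.81e-06, n = 3 in each group). PATJ, another scaffold gene, rose with a log2 fold change of 0.88 (edgeR adjusted p = 8.54e-06), and PXN, the gene of the focal adhesion adaptor paxillin, rose with one of 0.44 (edgeR adjusted p = 7.13e-05). PALS1 fell with a log2 fold change of -0.26 (edgeR adjusted p = 0.000661). Of 10 neighbours each, 7 of LIN7A, 1 of PATJ, 4 of PXN and 6 of PALS1 had negative values. The medians were -0.24, 0.30, 0.08 and -0.03. The Crumbs genes CRB1 and CRB2 had at most 1 read and CRB3 at most 10, and they were not tested.

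**Figure D5:**
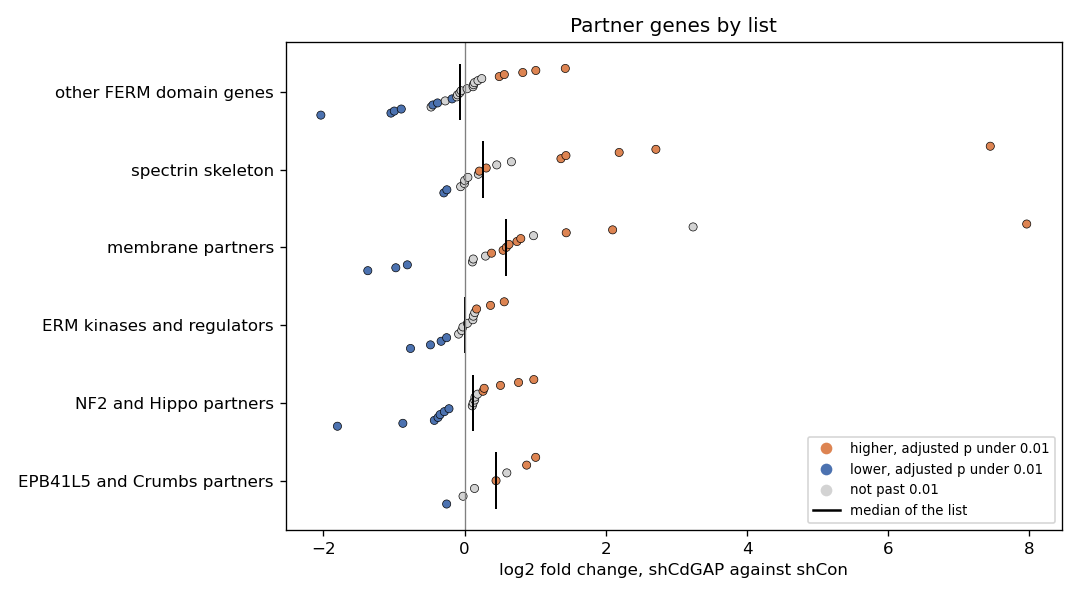
Log2 fold change (shCdGAP minus shCon) of each tested gene in the 6 partner lists, 1 point per gene, with a line at each list's median and colours for genes higher or lower at an edgeR adjusted p under 0.01. The membrane partners have the highest median at 0.59 and the other FERM domain genes the lowest at -0.06. The points furthest right are the fitted values of ADD2 and GYPC, which had 0 to 5 reads in each shCon library. Both are coloured as higher, though they passed the low-count filter through shCdGAP alone and could only come out higher.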

How the data were processed

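The 6 deposited tables held read counts per gene, which the authors made with STAR 2.5.1b on GRCh38 and featureCounts on the genes of Ensembl release 77, per the submitters' processing notes and the file headers. The headers name featureCounts 1.6.0 and the notes 1.4.6, and the headers record paired-end options with reverse strand while the methods name a single-read kit. Reads that map to several places or overlap several genes were not counted, which can lower genes with close copies such as MSN, EZR and RDX. Counts were read as deposited, and the tables pair no symbols with identifiers: symbols were matched for 56105 of 64253 identifiers (87.3%).

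Genes kept by edgeR's filterByExpr (16439) were fitted with edgeR 4.0.16 (R 4.3.3) by the quasi-likelihood test with TMM scaling and Benjamini-Hochberg adjustment, calling an adjusted p under 0.01. Fold changes are shCdGAP against shCon on the log2 scale. CPM were divided by exon length only to compare levels between genes. With 3 against 3 libraries an exact permutation test cannot go below a two-sided p of 0.1, so none is given. On simulated counts for 16208 genes, 196 of 200 changed genes and 12 of 16008 unchanged genes were called. The changed genes were all given large differences and were drawn from genes above a CPM floor. No simulated library stood apart as shCdGAP replicate 2 did. The totals are not given here by size of difference or by read level. How often differences as small as those of EPB41, EPB41L1, EZR and RDX are called was not tested. The same holds for levels as low as that of EPB41L4A.

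The 10 genes and the 6 partner lists were chosen with earlier results of these data known. Named genes were the 10, ARHGAP31, the 5 genes of at least 1 average log2 CPM most correlated with EPB41L3, the neighbours of EPB41L3, and in each partner list the 2 genes highest and the 2 lowest in log2 fold change of those that passed. The Band 4.1 shares, the genes as low as EPB41L3 and the untested partners were added after the data were seen. Marker lists not given above were fibroblast (COL1A1, COL1A2, DCN, LUM, PDGFRB), summing to 334 to 343 CPM in shCdGAP and 301 to 307 CPM in shCon with COL1A2 at 276 to 289 CPM and DCN at most 5 reads, and endothelial (PECAM1, CDH5, VWF), summing to 2.44 to 6.06 CPM and 5.69 to 5.84 CPM with VWF at most 1 read. TMPRSS2 had at most 2 reads. Some markers of these lists are not reported here. Promoter stretches were from RefSeq, GRCh38.p14, which holds all 10 genes. Alternatives were other scalings, other low-count filters, DESeq2 1.42.0, a replicate block, an adjusted p under 0.05, 10 neighbours on each side, and leaving out each library.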

Additional observations from a re-analysis of the deposited data

How the results depend on the processing

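Leaving out each library in turn gave log2 fold changes of -7.04 to -4.58 for EPB41L3 and -0.33 to -0.29 for RDX. The correlation of deviations between same-numbered libraries of the 2 groups was 0.0306, 0.0499 and 0.0469, each the highest for its libraries but under 0.1, so the replicate numbers were not taken to pair them. With a replicate block, 2 of the 10 genes were lower, and EPB41L3 at -5.13, EPB41L4A at -1.68 and EZR at -0.14 did not pass. Over all tested genes 3421 were lower with the block and 3624 without it. Without each library, there were 2 to 6 genes lower and 0 to 1 higher, a median of -0.17 to -0.14, and log2 fold changes of -0.23 to -0.19 for EPB41, 0.17 to 0.23 for EPB41L1, -0.047 to 0.024 for EPB41L2, -2.08 to -1.42 for EPB41L4A, -0.087 to 0.26 for EPB41L5, -0.17 to -0.12 for EZR, -0.029 to 0.023 for MSN and -0.20 to -0.11 for NF2. It also gave 6 to 11 other FERM domain genes lower, 2 to 6 ERM kinases and regulators higher and 3 to 9 Hippo partners higher. The value for EPB41L2 was negative without shCdGAP replicate 2 (-0.047) or shCon replicate 3 (-0.038), that of EPB41L5 without shCdGAP replicate 2 (-0.087), and that of MSN without shCdGAP replicate 1 (-0.029) or 3 (-0.011) or shCon replicate 1 (-0.0074), 2 (-0.0071) or 3 (-0.017). Over all tested genes leaving out a library gave 2953 to 5013 higher and 2834 to 5022 lower.

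The EZR call was lost under upper-quartile scaling (-0.13), library size alone (-0.11), no low-count filter (-0.14) and at least 10 reads in every library (-0.13). DESeq2 gave EPB41L4A -1.75, which did not pass, EPB41L2 -0.0061 and MSN -0.0092. NF2 passed with no low-count filter (-0.16) and at an adjusted p under 0.05 (-0.16). At least 10 reads in every library left 3 genes lower, with EPB41L4A not tested. Over all genes tested, 3341 were lower with that filter and 3624 in the main fit. The median was -0.13 by library size alone, -0.13 with at least 10 reads and -0.16 by DESeq2. At an adjusted p under 0.05, 6 ERM kinases and regulators and 8 Hippo partners were higher, against 30.9% of all tested genes. By unscaled reads EZR, RDX and MSN made up 13.6%, 12.8% and 73.7% of the ERM sum in shCdGAP and 14.4%, 15.1% and 70.5% in shCon, since exon length is then not divided out. With 10 neighbours on each side the median around EPB41L2 was -0.048 and that around EPB41L3 0.54. At 1.5-fold, shCdGAP replicates 1 and 2 stood apart in 1 and 316 genes, and shCon replicates 1, 2 and 3 in 1, 13 and 2. The causes of these shifts were not tested unless given. Of all recomputed values, 313 were classed as the same, 40 moved, 11 reversed, 3 newly passed and 22 no longer passed. These values include gene counts, medians and shares, for which the same class allowed some change. A rise from 3963 to 5013 genes higher over all tested genes fell in it, so 313 is not a number of calls that held. Read depth limits EPB41L4A and the shCdGAP level of EPB41L3, which rest on few reads.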

Other observations

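CD44, ANK2, TMOD1 and PDPN were picked after their values were seen. CD44, the hyaluronan receptor that ERM proteins bind, was the most abundant membrane partner, at 540.6, 547.2 and 519.7 CPM in shCdGAP and 344.9, 347.6 and 347.4 CPM in shCon (log2 fold change 0.63, SE 0.0341, edgeR adjusted p = 8.54e-07), so every shCdGAP library was above every shCon library. ANK2, an ankyrin gene of the spectrin skeleton, rose from 10.03 ± 0.713 to 27.1 ± 2.29 CPM (log2 fold change 1.44, edgeR adjusted p = 1.18e-06, n = 3 in each group). TMOD1, the tropomodulin known from red cells, had 17.6, 27.7 and 16.5 CPM in shCdGAP and 4.70, 4.31 and 4.57 CPM in shCon (log2 fold change 2.19, edgeR adjusted p = 9.25e-05). PDPN, which encodes podoplanin, an ERM-binding mucin, had 6.12, 35.4 and 6.05 CPM in shCdGAP and a mean of 1.69 ± 0.157 CPM in shCon (SD, n = 3), with shCdGAP replicate 2 far above its group mates, and it did not pass (log2 fold change 3.24, SE 0.973, edgeR adjusted p = 0.0376).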
